A study of Mus musculus with 10 samples.

Results

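The Zfp genes of the mouse, named for zinc finger proteins, were examined in the RNA metabolic rates of cultured cortical neurons. Every row of the rate table whose gene symbol is Zfp followed by digits alone was taken, which gave 184 of the 8590 genes listed. The rule itself uses no measured value. Both genotypes, wild type and Fmr1-KO, carried the strain label FVB.129P2-Pde6b+ Tyrc-ch/AntJ. Their neurons came from cortices of E18 embryos and were grown for 14 days in vitro. The label was 200 µM 5-ethynyluridine (5-EU), given for 20 or 60 min, a modified uridine that newly made RNA takes up and by which this RNA can be pulled down. Of the 10 samples, each genotype had 2 labelled libraries (1 of 20 min and 1 of 60 min), 2 inputs and 1 control pull-down without label. Rates were deposited for the 4 labelled libraries, so that the labelling times of a genotype stand as its 2 replicates. The knocked-out allele is not described in the labels, nor whether libraries came from separate cultures, so every p-value measures only the spread between these libraries, which may be technical.

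Zinc finger proteins of the C2H2 type fold short stretches of protein around a zinc ion held by a pair of cysteines and a pair of histidines, and most of them bind DNA through arrays of such fingers. Many carry a KRAB domain at the amino-terminal end, which recruits the corepressor Trim28 and with it histone methylation that silences transposable elements and some genes. The fingers of these arrays are often joined by a conserved linker with the amino acids TGEKP or TGERP. KRAB zinc finger genes lie in tandem clusters that grew by duplication, and their transcripts are known to be short-lived. Fmr1 encodes FMRP, an RNA-binding protein that regulates translation and mRNA stability in neurons, and whose loss causes fragile X syndrome.

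All 184 members matched a coding transcript of the GENCODE M21 annotation (GRCm38), and the translated transcript with the longest coding sequence was searched for these features. A KRAB domain, defined as at least 16 of 40 residues identical to a consensus, was found in 75 members. Another 91 members had at least 3 C2H2 motifs and no KRAB match, and 18 had fewer than 3 C2H2 motifs. The SCAN domain, a dimerization module of some zinc finger proteins, was found in 9 members, 5 of them with KRAB. At least 1 linker was present in 130 members. The median member had 9.5 C2H2 motifs and 586 residues, encoded in 5 exons against 9 exons for the median of all 8315 genes with a coding transcript. Coding sequences of KRAB members were low in G and C, with a median of 44.6% against 56.7% in the C2H2 members without KRAB and 53.1% over all genes.

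Single fingers of 6 members illustrate what the family shares and where it varies. They are from the members whose degradation rates differed most between genotypes or were highest, and are written from the GRCm38 coding strand, 5′ to 3′. Capitals mark the codons of the 2 cysteines and 2 histidines that hold the zinc. The first 5 fingers run on through the linker, whose codons end the sequence, while the finger of Zfp511 has no such linker.
Zfp27: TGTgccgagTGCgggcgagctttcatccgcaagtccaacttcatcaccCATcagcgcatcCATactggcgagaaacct
Zfp62: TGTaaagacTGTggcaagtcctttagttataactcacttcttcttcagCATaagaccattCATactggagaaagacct
Zfp235: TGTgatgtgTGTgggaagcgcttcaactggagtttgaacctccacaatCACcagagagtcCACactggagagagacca
Zfp938: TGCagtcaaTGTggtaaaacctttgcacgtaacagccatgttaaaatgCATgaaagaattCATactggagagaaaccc
Zfp281: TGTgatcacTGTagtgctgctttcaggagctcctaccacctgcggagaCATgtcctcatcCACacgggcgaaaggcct
Zfp511: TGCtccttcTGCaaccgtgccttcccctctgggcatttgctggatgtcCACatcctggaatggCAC

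These stretches are coding and each lies within 1 exon. The finger of Zfp27 is number 15 of 21 and lies at chr7:29894583-29894660 on the minus strand. That of Zfp62 is number 11 of 25, at chr11:49216299-49216376 on the plus strand. For Zfp235 it is number 9 of 15, at chr7:24141682-24141759 on the plus strand, and for Zfp938 number 5 of 10, at chr10:82225483-82225560 on the minus strand. Zfp281 is shown by finger 1 of 3, at chr1:136626063-136626140 on the plus strand, and Zfp511 by finger 2 of 3, at chr7:140037317-140037382 on the plus strand. The shared layout bears on the measurement, since reads from like fingers can match more than 1 gene. For 22 members, more than 5% of the 50-base words of the transcript also occurred in another gene. Exons of 13 members overlapped those of another gene on the same strand and exons of 53 on the other strand, and how the deposited counts treated strand is not given in the sources used here.

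Chromosome 7 held 44 members (23.9%), followed by chromosome 17 with 18 and chromosomes 6 and 8 with 14 each. Together, 97 members lay in 29 clusters of at least 2 members no more than 500 kb apart. The largest, at chr7:29768552-30169750, held 9 members, 6 of them with KRAB, among them Zfp84, Zfp27 and Zfp940, which are described below.

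A rate was listed for most members, and for fewer in the knockout. Wild-type degradation rates above 0 were given for 175 members (20 min) and 174 members (60 min), those of the knockout for 150 and 151. Of the 174 members with both wild-type values, 21 (12.1%) had none in the knockout, against 1546 of 7914 genes (19.5%) in the whole table. All 4 values were present for 140 members in the synthesis rate, 127 in the processing rate and 137 in the degradation rate, and the genotypes were compared in these. Why estimates are missing is not given in the sources used here.

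The targeted gene checked the labels only in part. Fmr1 had degradation rates of 0.0774 and 0.0672 in the libraries labelled wild type and 2.58 and 2.66 in those labelled Fmr1-KO, and synthesis rates of 0.810 and 0.692, then 2.06 and 1.56, which are higher in the knockout. Of 12 neuronal marker genes 3 were in the table and 1 had rates in all libraries, of 8 astrocyte markers 3 and 1, of 8 oligodendrocyte markers 4 and 1, and of 6 microglial markers 0. The cell type of the cultures could therefore not be checked from markers, and fewer cells of a type and less RNA per cell cannot be told apart in bulk samples.

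In wild-type neurons the RNAs of the Zfp genes had high degradation rates, ordinary synthesis rates at 20 min and low mature RNA. The median degradation rate of members was 0.225 at 20 min and 0.330 at 60 min, in the units of the deposited table, whose time unit is not stated, against 0.111 at each time over all genes. At 20 min 85.1% of the members exceeded the median of all genes and at 60 min 87.9%. In the knockout the members' medians were 0.270 and 0.390 against 0.190 and 0.195 over all genes, and 64.7% and 74.2% of members exceeded them. The distance between members and all genes was thus smaller in the knockout table, where the all-gene median was higher.

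**Figure D1:**
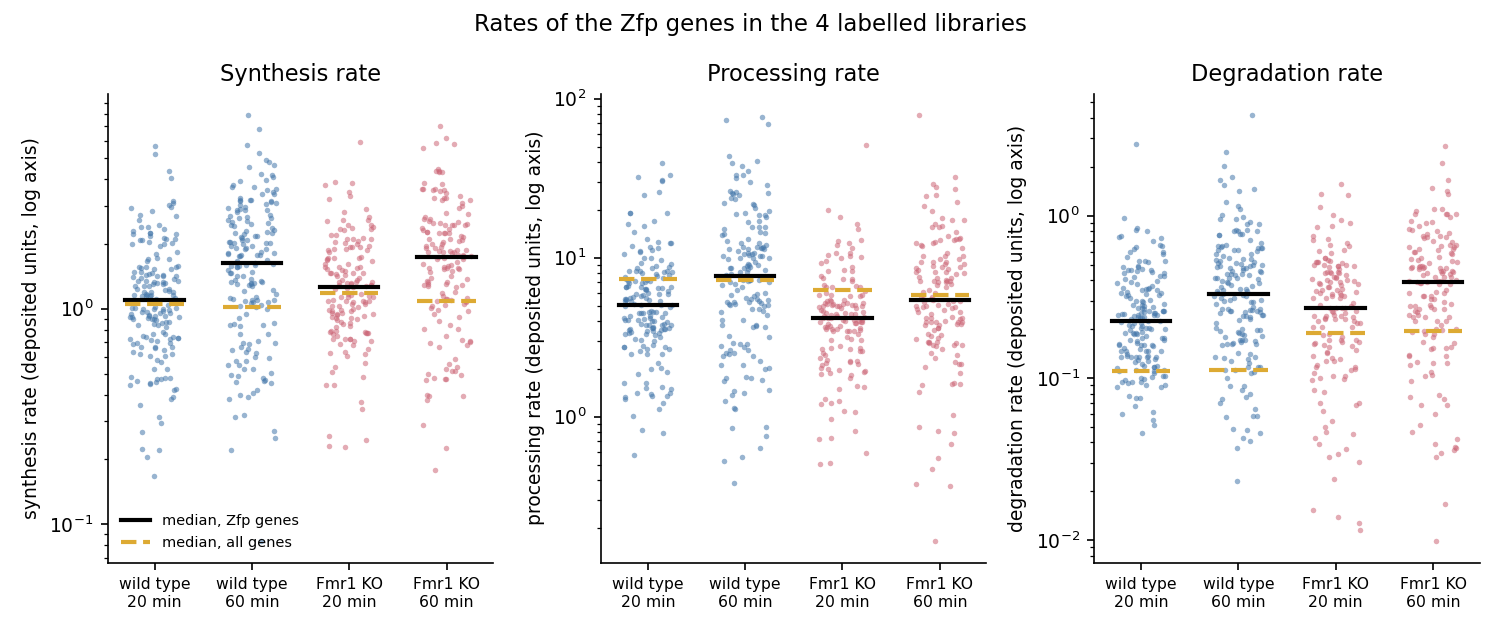
Synthesis, processing and degradation rate of each Zfp gene in the 4 labelled libraries (points, log axes, deposited units), with the median of the Zfp genes (solid bar) and of all genes (dashed bar). The degradation medians of the Zfp genes lie above those of all genes in every library, while the processing medians lie below or close to them.

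Synthesis rates of members had medians of 1.10 and 1.63 in wild type, then 1.25 and 1.75 in the knockout, for 20 and 60 min. Over all genes they were 1.06 and 1.02, and 1.19 and 1.08. At 20 min the members lay close to other genes, and at 60 min above them, in both genotypes. Processing rates, which describe how fast intron-containing precursor becomes mature RNA, had medians of 5.04 and 7.72 in wild type, then 4.16 and 5.46 in the knockout, against 7.37 and 7.25, and 6.30 and 5.85, over all genes.

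At steady state, synthesis over degradation gives the level of mature RNA and synthesis over processing gives the level of precursor. The first ratio had a median of 4.49 in wild type at 20 min among members and of 8.43 over all genes. The second had a median of 0.217 among members and 0.138 over all genes. Zfp transcripts therefore had less mature RNA and more precursor by these ratios than the median gene of the table. Processing over degradation, the number of times faster the precursor left than the mature RNA, was 21.3 at the median of members and 63.9 over all genes.

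Degradation rates were ordered by protein class. Wild-type members with KRAB had median degradation rates of 0.259 at 20 min and 0.476 at 60 min (n = 72). C2H2 members without KRAB had 0.201 (n = 86) and 0.309 (n = 85), and members with fewer than 3 motifs 0.147 and 0.143 (n = 17). The same order held in the knockout, with 0.312 and 0.456 for KRAB, 0.268 and 0.312 for the other C2H2 members and 0.132 and 0.154 for those with fewer than 3 motifs. The classes overlapped widely, and members share libraries, so the order is a description. Across members, Spearman's rho between the number of linkers and the degradation rate was 0.29 at 20 min (n = 175) and 0.40 at 60 min (n = 174) in wild type. In the knockout it was 0.15 (n = 150) and 0.21 (n = 151). Over all genes, most without a linker, it was 0.16 and 0.19 in wild type, then 0.08 and 0.13. With the number of exons rho was -0.41 and -0.38 in wild type. Over all genes the exon values were alike, at -0.40 and -0.38, so this relation with exons is not particular to the family. Members share libraries and sequence, and no p-value is attached to these values.

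**Figure D2:**
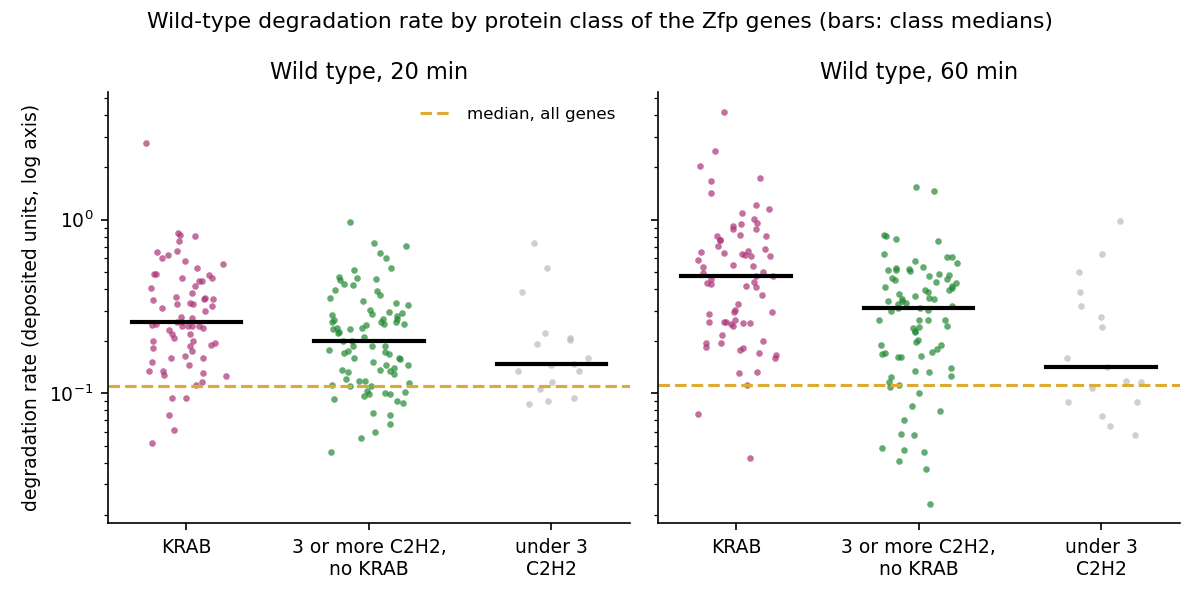
Wild-type degradation rate of each Zfp gene (points, log axis, deposited units) by protein class at 20 and 60 min of labelling, with class medians (bars) and the median of all genes (dashed line). The medians fall from KRAB members (0.259 and 0.476) to members with fewer than 3 C2H2 motifs (0.147 and 0.143), with wide overlap.

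Members at the ends of each wild-type rate were ranked by the mean log2 rate of both labelling times, among those with all 4 values. Others can thus lie further out, in 1 library or for want of a knockout value. By this order the 3 highest degradation rates were those of Zfp235, Zfp281 and Zfp952. The highest wild-type rates of any member were 2.75 at 20 min and 4.19 at 60 min, above those of the 3. Zfp281, a C2H2 factor of pluripotent cells that binds G-rich promoters, had rates of 0.966 and 1.46 in wild type, then 1.35 and 1.66 in the knockout. For Zfp235, a KRAB member, the rates were 0.844 and 2.49 in wild type, then 0.362 and 1.03 in the knockout, and Zfp952 had 0.444 and 2.03, then 0.864 and 1.07. The ranges of the genotypes overlap for each of the 3, and for Zfp235 and Zfp952 the wild-type values at the 2 labelling times differ more than the genotypes. In synthesis Zfp281 ranked highest, with 5.23 and 7.92 in wild type, then 5.91 and 7.06 in the knockout. It was followed by Zfp703, a transcriptional corepressor, with 5.66 and 6.85, then 3.73 and 5.81, and by Zfp319 with 4.37 and 5.76, then 3.88 and 5.55.

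At the other end of the same order, the lowest degradation rates were those of Zfp335, Zfp512 and Zfp536, although at 60 min Zfp423 (0.0406) and others lay below Zfp335. Zfp335, a chromatin-associated factor whose human counterpart is mutated in a form of microcephaly, had 0.0459 and 0.0796 in wild type, then 0.0696 and 0.0417 in the knockout, with overlapping genotypes. The low synthesis rates were those of Zfp286 (0.359 at 20 min in wild type), Zfp932 (0.222 and 0.221) and Zfp940 (0.167 and 0.453). Processing was fastest for Zfp248 (30.7 and 73.6), Zfp87 (39.2 and 69.6) and Zfp235 (25.9 and 76.4) in wild type, all KRAB members, and slowest for Zfp318 (0.574 and 0.381), Zfp286 (1.22 and 0.854) and Zfp239 (1.36 and 0.862).

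All 3 rates of the family differed between the 20 and 60 min libraries in both genotypes. Synthesis was higher at 60 min in 130 of 174 members in wild type (median log2 difference 0.54) and in 102 of 145 in the knockout (0.45). Processing was higher in 118 of 160 (0.51) and in 90 of 131 (0.46). In wild type the difference in degradation repeats that in synthesis wherever both times share the ratio of these rates, as described below. With 1 library per labelling time and genotype, the length of labelling and the library cannot be told apart. In wild type the degradation rate was higher at 60 than at 20 min in 130 of 174 members, with a median log2 difference of 0.53, against -0.05 over all genes. In the knockout it was higher in 100 of 142 members, with a median of 0.40 against -0.07 over all genes. For KRAB members the medians were 0.82 in wild type, with 60 of 72 higher, and 0.70 in the knockout, with 50 of 60 higher. Genes of other C2H2 families shifted alike, with medians of 0.69 (58 of 74 higher) and 0.47 (48 of 63). They were picked by symbol (such as Zbtb, Klf and Zscan), without a count of motifs. Their median wild-type degradation rate at 20 min was 0.225 as well. The direction of the difference was the same in both genotypes for 117 of the 137 members with 4 values. This difference enters the replicate error of every comparison below, and a fit with labelling time as a block is therefore given beside the main one. Across members, Spearman's rho of the degradation rate between genotypes was 0.29 at 20 min (n = 145) and 0.49 at 60 min (n = 146), against 0.24 and 0.32 over all genes, and that of the synthesis rate was 0.81 and 0.95 (n = 147 and 148), against 0.88 and 0.97 over all genes.

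The deposited rates hold exact relations that decide what can be replicated. In wild type, synthesis over degradation was the same at 20 and 60 min, within 0.001 on the log2 scale, in 161 of 174 members, and synthesis over processing in 160 of 160. The other 13 members, like all 525 genes with unequal ratios of synthesis to degradation, had no processing rate at 1 of the 2 times. Where processing was listed at both times, the processing and degradation rates of a wild-type library thus equal its synthesis rate divided by RNA levels that both labelling times share. In the knockout the corresponding counts were 0 of 142 and 2 of 131. Knockout rates instead equalled synthesis minus the difference in RNA level between knockout and wild type, divided by the knockout level, with the level difference taken over 1 unit of time. When the knockout levels were solved from that relation, those from the 20 min rates and those from the 60 min rates differed by the same 0.000649 on the log2 scale in each of the 127 members with all rates, for precursor and for mature RNA. The same offset held in all 5076 genes with all rates. A level difference of that form enters when a change over time is modelled, and whether it was intended for a comparison of genotypes is not given in the sources used here. Each genotype thus contributes 1 estimate of mature and 1 of precursor level per gene, without replicate error.

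The solved levels also showed how many reads lie behind them. The knockout to wild-type ratio of the precursor level, divided by 0.796 for every gene alike, was a ratio of whole numbers of at most 1000 for 127 of 127 members, to within a relative tolerance of 1e-08. For the sum of precursor and mature level it was so for 126 of 127 members, and for the mature level alone, which is a difference of the others, for 2 of 127. In lowest terms the larger number of the precursor ratio had a median of 11 over members, and it was at most 10 in 62 of them. Over all 5076 genes with all rates the median was 12, and the number was at most 10 in 2295. A number in lowest terms is the least that the reads can be. The 127 members held only 85 distinct precursor ratios. Where the level times the annotated intron length was itself a whole multiple of 1 value shared by many genes, the reads could be counted outright, which was so for 15 members. Their precursor levels rested on a median of 7 reads in wild type and 9 in the knockout, and 11 of the 15 had fewer than 10 reads in a genotype. Over all 630 genes with resolved precursor reads the medians were 10 and 14, with fewer than 10 reads in a genotype in 321. Zfp281 had 2 precursor reads in wild type and 5 in the knockout, Zfp84 had 2 and 9, Zfp575 had 1 and 1, and Zfp292, with its long introns, 82 and 136. For Zfp84 the knockout to wild-type ratio was 3.58 with an exact (Clopper-Pearson) 95% interval of 0.741 to 34.1, which covers counting error only. The precursor interval included 1 in each of the 15 members. Summed exon reads were resolved for 6 members, between 25 and 609 in wild type, and 1 interval of their ratio left out 1, that of Zfp623 with 50 and 37 reads (ratio 0.589, 0.374 to 0.919). A whole-number ratio under 1 scale factor per genotype is what a single library, or libraries pooled as reads, would give, and the labels list 1 of the 2 input libraries of a genotype as a source of the rates.

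Degradation rates of 137 members were compared between genotypes, to ask whether loss of Fmr1 changed the decay of these transcripts. By limma on log2 rates, 12 members rose and 7 fell in the knockout at an adjusted p under 0.05. Over all 5716 genes tested 20.5% rose and 2.57% fell. The median log2 change of members was 0.25 (quartiles -0.48 and 0.77), with 81 of 137 above 0, against 0.65 over all genes. It turned to -0.61 when each library was centred on its median and to -0.10 without the 20 min library of wild type, and was 0.02 without the 60 min library of the knockout and 0.42 and 0.44 without either of the other libraries. Centring also turned the split of the calls, to 0 rises and 4 falls (0.56% and 1.05% of all genes), and quantile normalization gave 3 and 12 (6.3% and 4.13%). KRAB members had a median of -0.11, C2H2 members without KRAB 0.36 and those with fewer than 3 motifs 0.52, and without the level difference described above these were 0.02, 0.03 and -0.05. With labelling time as a block the counts were 26 and 21, against 38.2% and 9.76% of all genes, and with block and centring 8 and 41, against 13.9% and 22.4%. Leaving out a library changed the count of calls, to 0 without the 60 min and 12 without the 20 min library of wild type, and to 1 and 2 without those of the knockout. Over all genes the shares called in these fits were 0.0175%, 19.5%, 2.26% and 2.62%. Both knockout values exceeded both wild-type values in 47 members and lay below them in 25, against 52.6% and 16.5% of all genes. In the authors' deposited table, 17 of 153 members tested were higher and 20 lower at an adjusted p under 0.05, against 29.2% and 7.09% of the 6182 genes tested there, and the 19 members called by limma here were all among them.

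These calls did not hold when the level difference was left out of the knockout rates. With knockout degradation recomputed as synthesis over the solved mature level, 0 of 127 members and 0 of 5076 genes passed limma's adjusted p of 0.05, with 2 members and 78 genes at unadjusted p-values under 0.05. The deposited rates of the same 127 members gave 12 rises and 6 falls. The median change of members without the level difference was 0.01 on the log2 scale, against 0.06 over all genes. With labelling time as a block as well, 0 members and 2 of 5076 genes passed, and unadjusted p-values below 0.05 were found in 14 members and 508 genes. The named changes in degradation that follow are therefore changes of the deposited rate.

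**Figure D3:**
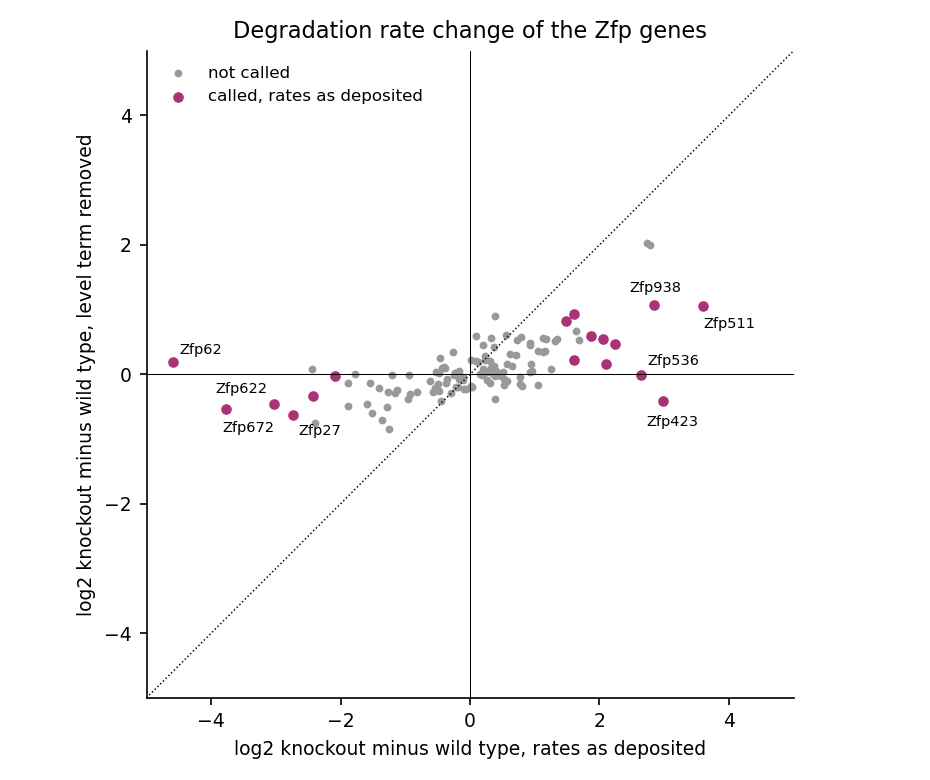
Log2 change of the degradation rate, knockout minus wild type, of the 127 Zfp genes with all rates, in the rates as deposited (x axis) and with the level difference removed from the knockout rates (y axis); the dotted line marks equality and coloured points passed an adjusted p of 0.05 in the deposited rates. The points spread from -4.59 to 3.60 along the x axis and from -0.85 to 2.02 along the y axis.

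Among the rises, Zfp511, which has 3 C2H2 motifs, went from 0.101 and 0.0475 in wild type (20 and 60 min) to 0.904 and 0.780 in the knockout. The genotypes did not overlap, and the log2 change was 3.60 (SE 0.49, limma adjusted p = 0.0235). Its solved mature level was 8.36 in wild type and 5.03 in the knockout, and without the level difference its knockout rates were 0.219 and 0.0954, a log2 change of 1.06. Zfp423, a factor with 28 C2H2 motifs that acts in BMP and retinoic acid signalling and in cerebellar development, went from 0.0931 and 0.0406 to 0.494 and 0.476. It changed by 2.98 log2 units (SE 0.51, limma adjusted p = 0.0286), and by -0.41 without the level difference. Zfp938, a KRAB member, was steady between labelling times in wild type, at 0.199 and 0.196, and stood at 1.36 and 1.49 in the knockout. Its log2 change of 2.85 (SE 0.31, limma adjusted p = 0.0235) became 1.08, with a mature level of 4.24 in wild type and 2.03 in the knockout.

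Zfp536, a repressor of neuronal differentiation, rose from 0.0771 and 0.0484 to 0.389 and 0.377, a change of 2.65 log2 units (SE 0.39, limma adjusted p = 0.0236) that became -0.01 without the level difference. For Zfp932, a KRAB member, all 4 values were tight within genotype, at 0.112 and 0.112, then 0.532 and 0.528. The change was 2.24 (SE 0.31, limma adjusted p = 0.0235), and 0.47 without the level difference. Of the 50-base words of Zfp932, 55.5% also occur in the predicted gene Gm15446, so its values are uncertain. Zfp512 had one of the lowest wild-type rates, 0.0551 and 0.0458, and 0.233 and 0.198 in the knockout, a change of 2.10 (SE 0.33, limma adjusted p = 0.0262) that became 0.16.

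The largest fall was that of Zfp62, which encodes 25 C2H2 motifs. Its degradation rate was 0.177 and 0.406 in wild type, then 0.0127 and 0.00982 in the knockout, without overlap, a change of -4.59 log2 units (SE 0.53, limma adjusted p = 0.0235). Its synthesis rate was 0.691 and 1.59 in wild type, then 1.55 and 1.54 in the knockout, and its solved mature level 3.90 and 5.06. Without the level difference the knockout degradation rates were 0.307 and 0.305, which lie between the wild-type values, and the log2 change turned to 0.19. A rise in level that takes up nearly all of the synthesis rate thus left a deposited degradation rate close to 0.

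Zfp672 had 0.517 and 0.489 in wild type, then 0.0818 and 0.0167 in the knockout, a change of -3.76 log2 units (SE 0.84, limma adjusted p = 0.0441) that became -0.54 without the level difference. Zfp622, a protein of the 60S ribosomal subunit's maturation despite its name, fell from 0.270 and 0.342 to 0.0364 and 0.0376, by 3.04 on the log2 scale (SE 0.33, limma adjusted p = 0.0235), and by 0.46 without the level difference. The knockout rates of both lay below every wild-type value.

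For Zfp27, whose finger is shown above, the rates were 0.600 and 0.813 in wild type, then 0.106 and 0.102 in the knockout. It changed by -2.74 log2 units (SE 0.35, limma adjusted p = 0.0235), and -0.62 without the level difference. Zfp707, a KRAB member, had 0.219 and 0.458, then 0.0448 and 0.0764 (log2 change -2.44, SE 0.54, limma adjusted p = 0.0442), and no level could be solved for it because processing rates at 60 min were not listed. Zfp180 had 0.224 and 0.265, then 0.0304 and 0.0681 (log2 change -2.42, SE 0.51, limma adjusted p = 0.0395), and -0.33 without the level difference. The genotypes did not overlap in the deposited rates of any of the 12 members named. These were chosen by adjusted p, size and direction of the change, so the lack of overlap adds no evidence. Over all genes both knockout values lay above both wild-type values in 52.6% and below them in 16.5%.

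**Figure D4:**
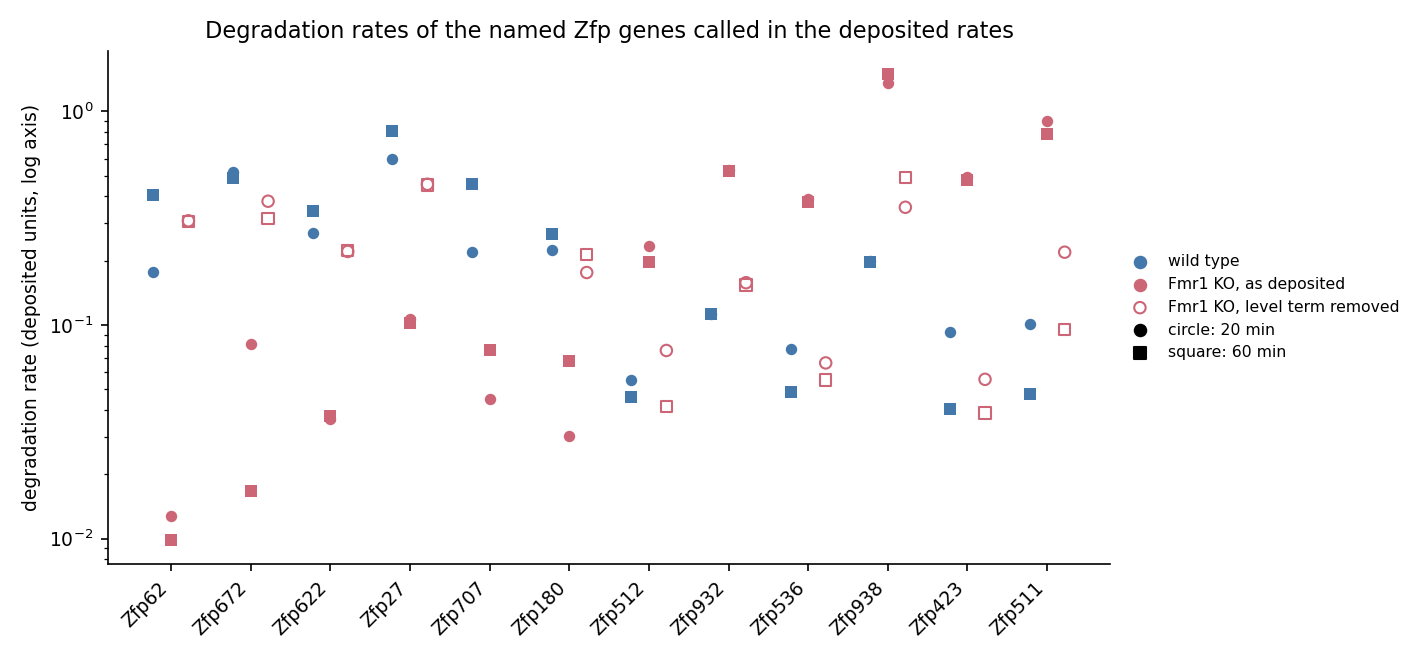
Degradation rates (log axis, deposited units) of the 12 named Zfp genes in wild type, in the knockout as deposited and in the knockout with the level difference removed (open symbols, none for Zfp707), by labelling time. Open symbols lie much nearer the wild-type values than the filled knockout symbols do, as in Zfp62, at 0.307 and 0.305 against 0.0127 and 0.00982.

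Ratios of deposited rates repeat this pattern. Synthesis over degradation had a median log2 change of -0.12 over the 137 members and -0.64 over all genes, and of 0.50 over members after centring. It was highest in Zfp62 (5.15), Zfp672 (3.62) and Zfp410 (3.01), and lowest in Zfp423 (-3.91), Zfp511 (-3.27) and Zfp536 (-3.06). Zfp410, a factor with 5 C2H2 motifs known to control the NuRD subunit Chd4, had ratios of 1.47 in wild type at both times and of 9.20 and 15.2 in the knockout, while its solved mature level was 1.47 and 2.06. The ratios of knockout rates are thus far from the levels they stand for at steady state. KRAB members had a median ratio change of 0.28, with 39 of 59 above 0, and C2H2 members without KRAB of -0.33, with 18 of 67 above 0.

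The solved levels of mature RNA had medians close to each other in the genotypes, and those of precursor RNA were higher in the knockout. Mature RNA of members had a median level of 4.95 in wild type and 5.03 in the knockout, and the median log2 difference was -0.06, with 51 of 127 above 0, against -0.08 over all genes. KRAB members had a median difference of 0.03, with 32 of 55 above 0, and C2H2 members without KRAB -0.09, with 17 of 61 above 0. The differences ran from -1.06 in Zfp938 to 0.57 in Zfp27. Precursor RNA was higher in the knockout in 97 of 127 members (76.4%) and in 70.9% of all genes, with medians of 0.217 and 0.295 and a median log2 difference of 0.48, against 0.29 over all genes. KRAB members had 0.64 (44 of 55 above 0), C2H2 members without KRAB 0.38 (45 of 61) and members with fewer than 3 motifs 0.26 (8 of 11). With 1 level per genotype there is no replicate check and no test of these differences.

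**Figure D5:**
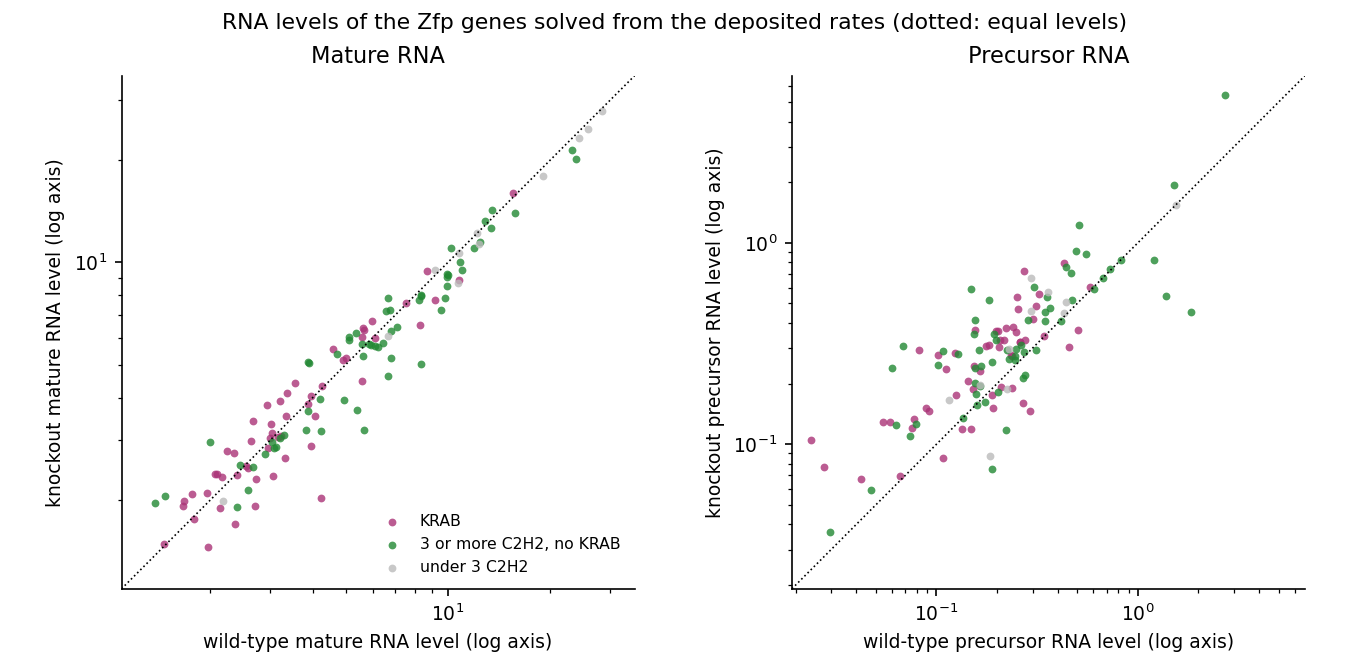
Mature and precursor RNA levels of the 127 Zfp genes solved from the deposited rates, wild type (x axis) against Fmr1 knockout (y axis), on log axes and by protein class; the dotted line marks equal levels. Mature levels stay near the line, with a median log2 difference of -0.06, and 97 of 127 precursor levels lie above it, against 70.9% over all genes.

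Processing rates were compared in 127 members, to ask whether precursors matured at another pace. No member passed limma's adjusted p of 0.05, with 30 members at an unadjusted p under 0.05, and no gene of 5082 passed, with 783 at that unadjusted p. Members had a median log2 change of -0.55 against -0.36 over all genes, and of -0.20 after centring. Both knockout values lay below both wild-type values in 59 members and above them in 12, against 35.1% and 11.5% of all genes. With labelling time as a block 39 members fell and 8 rose, against 19.3% and 6.26% of all genes. Centring left 17 falls and 9 rises with the block, against 6.4% and 7.14%, where centring itself evens out falls and rises over all genes. Without the level difference and with the block, 23 fell and 6 rose, against 11.9% and 3.61% of all genes, and those 29 were all among the 47. The error of these fits is that of the synthesis rate, since the precursor level has no replicate. Of the 47 members called with the block, 27 had a precursor ratio whose larger whole number was at most 10. That was so in 62 of all 127 members and in 2295 of 5076 genes.

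Zfp652, a repressor of the C2H2 type, had processing rates of 17.1 and 29.8 in wild type, then 1.53 and 6.52 in the knockout. It changed by -2.84 log2 units (SE 0.78), with a limma adjusted p of 0.199 without and 0.0122 with the block, and the whole numbers of its precursor ratio, before the factor of 0.796, were 3 for wild type and 17 for the knockout, a level ratio of 4.51. Zfp41 had 33.3 and 39.4, then 5.03 and 7.43, and Zfp646 had 19.1 and 33.0, then 3.33 and 5.66. Both had the whole numbers 1 and 5 and a precursor level ratio of 3.98, with log2 changes of -2.57 (SE 0.44) and -2.53 (SE 0.52) and limma adjusted p of 0.00856 and 0.00809 with the block. Without the level difference the changes of Zfp652, Zfp41 and Zfp646 were -2.46, -2.40 and -2.30.

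Zfp84, a KRAB member with 2 and 9 precursor reads, had 19.0 and 37.5, then 4.24 and 8.18 (log2 change -2.18, SE 0.57, limma adjusted p = 0.0095 with the block). Among the rises, Zfp358 went from 2.19 and 2.50 to 11.6 and 12.9 (2.38, SE 0.40, limma adjusted p = 0.00865 with the block) with the whole numbers 13 and 4 and a precursor level ratio of 0.245. Zfp511 had 4.46 and 2.10, then 16.2 and 7.88, and Zfp629 1.12 and 1.45, then 4.16 and 4.86, both with the whole numbers 2 and 1 and a precursor level ratio of 0.398. Zfp286 had 1.22 and 0.854, then 3.55 and 3.61, with 8 and 5 and a ratio of 0.497. Without the level difference the log2 change was -2.01 for Zfp84, 1.96 for Zfp358, 1.66 for Zfp511, 1.23 for Zfp629 and 1.33 for Zfp286. In these 8 members of the processing comparison the genotypes did not overlap, which the choice by adjusted p and direction makes likely. Over all genes both knockout values lay below both wild-type values in 35.1% and above them in 11.5%.

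Synthesis rates gave no call in 140 members. None passed limma's adjusted p of 0.05 and none had an unadjusted p under 0.05, and of all 5794 genes 0 passed, with 18 below that unadjusted p. The block for labelling time left 0 members and 0 genes. Unadjusted limma p-values under 0.05 were then found in 6 of 140 members and 266 of 5794 genes. Members had a median log2 change of 0.00 (quartiles -0.15 and 0.24). Without 1 library this median was -0.28 to 0.25, so its sign depends on single libraries. Changes of single members ranged from -0.93 in Zfp423, with rates of 0.620 and 0.270 in wild type, then 0.257 and 0.179 in the knockout, to 1.53.

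Members with known functions were described whatever their values. Zfp148, a C2H2 factor that binds GC-rich promoter elements, had degradation rates of 0.111 and 0.227 in wild type, then 0.290 and 0.432 in the knockout (log2 change 1.16, SE 0.51, limma adjusted p = 0.157, and 0.37 without the level difference), and the whole numbers 39 and 119 behind its precursor level ratio of 2.43. Zfp292, a large C2H2 protein, had 0.239 and 0.514, then 0.240 and 0.267, and Zfp462, a chromatin regulator linked to neurodevelopmental disorders, 0.0997 and 0.266, then 0.241 and 0.320. Genotypes overlapped in both. Zfp365, a centrosomal protein without C2H2 motifs that acts in cortical neurons, had 0.117 and 0.143, then 0.171 and 0.201 (limma adjusted p = 0.299), Zfp384 0.146 and 0.112, then 0.158 and 0.150 (limma adjusted p = 0.58), and Zfp687 0.187 and 0.182, then 0.325 and 0.305 (limma adjusted p = 0.136). In these 3 both knockout values exceeded both wild-type values, as in 52.6% of all genes, and none passed the threshold. Without the level difference their log2 changes were -0.07, -0.09 and -0.05.

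Zfp703 had degradation rates of 0.526 and 0.637, then 0.336 and 0.531, and Zfp827 0.102 and 0.165, then 0.155 and 0.185, each with overlapping genotypes. Zfp57, the KRAB protein that guards imprinted regions, and Zfp598, the ubiquitin ligase that senses collided ribosomes, had knockout values only at 20 min. Zfp57 stood at 0.298 and 0.134 in wild type and 0.0424 in the knockout, and Zfp598 at 0.147 and 0.0574, then 0.0154. Zfp207, a spindle assembly factor, likewise had 0.135 and 0.116, then 0.0139 at 20 min, and Zfp644 and Zfp830 had a knockout value only at 60 min. The authors' deposited log2 changes of degradation were -2.42 for Zfp57, -2.71 for Zfp598, -3.30 for Zfp207, -2.09 for Zfp644 and -2.69 for Zfp830. With 1 knockout value each, these were not tested here. Zfp326, Zfp451 and Zfp521 had no knockout rate, and no rate was listed for Zfp91.

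In the 9-member cluster of chromosome 7 named above, all 9 were tested, the median log2 change of degradation was 0.31 and 1 member, Zfp27, was called. The cluster at chr17:32765496-33631779, with 7 members of which 6 carry KRAB, had a median of 0.02 and no call, where 20.5% of all genes rose and 2.57% fell. The genes of other C2H2 families picked by symbol had 4 rises (6.56%) and 2 falls (3.28%) in degradation among 61 tested. Of 21 corepressor genes listed as partners of KRAB proteins, 8 had degradation rates in all libraries, and 2 of these rose (25%), near the 20.5% of all genes. They were Atf7ip (0.101 and 0.126 in wild type, 0.353 and 0.375 in the knockout, log2 change 1.69, limma adjusted p = 0.0351) and Ehmt1 (0.0555 and 0.0789, then 0.271 and 0.255, log2 change 1.99, limma adjusted p = 0.0297), and none fell. Neither was called after centring or without the level difference, where the changes were 0.19 and 0.42.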

How the data were processed

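RNA of cultured cortical neurons was sequenced after 5-EU labelling and pull-down. The rate table, which the labels name for INSPEcT, was deposited with 3 linear rates per gene and labelled library, in no stated time unit. The authors also deposited tables with log2 fold changes and p-values of a limma comparison for each rate, with limma's moderated statistics, a score per gene that was deposited by the authors and is not used here. The submitters' processing notes name cutadapt, Bowtie2, TopHat2, HISAT2 and limma, and the builds mm10, dm6 and sacCer3, without their roles.

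Rates above 0 in all 4 libraries were put on a log2 scale without a pseudocount. Knockout was tested against wild type with limma 3.58.1 (R 4.3.3, two-sided, Benjamini-Hochberg over all genes). The fit was also run on simulated data, and its outcome there is not reported here. Labelling time as a replicate block was an alternative. The pairing comes from the labels, and the 60 minus 20 min differences of the genotypes had the same sign in 117 of 137 members in degradation. Depth per library is not in the table, so no precision beyond the 2 labelling times and the solved reads is known. The knockout levels were solved as P = (k1 + Pw) / (1 + k2) and M = (k1 + Pw + Mw - P) / (1 + k3), with synthesis, processing and degradation rates k1, k2 and k3 of the knockout and Pw and Mw the wild-type ratios of synthesis to processing and to degradation. Whole-number ratios used numbers up to 1000 and a relative tolerance of 1e-08, and reads a tolerance of 0.001. GENCODE M21 (GRCm38) gave positions, domains and fingers.

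The family to be described, the lists and the tests were chosen with earlier results of these data known, while the symbol rule that picks its members uses no measured value. Among members passing an adjusted p of 0.05 and changed alike at both times, the 6 largest rises and falls in degradation were named. The 4 largest rises and falls in processing were named likewise (block fit where the main one gave none). Also named were the 3 highest and 3 lowest of each wild-type rate, among members with all 4 values. The 3 largest rises and falls of the ratio of synthesis to degradation and members of known role were added. Atf7ip, Ehmt1, Zfp575 and the clusters were picked after their values were seen. The removal of the level difference, the read counts and 2 narrower memberships were added after seeing the data.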

Additional observations from a re-analysis of the deposited data

Results flagged for a closer look

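For some medians the change between genotypes had opposite signs at the 2 labelling times, and these differences were not tested. For the synthesis rate, the median log2 change was 0.0357 at 20 min and -0.0633 at 60 min over all members, 0.169 and -0.00328 for KRAB members, and 0.0326 and -0.101 for C2H2 members without KRAB. All genes of the table gave the same signs, with 0.0378 and -0.0830. For the degradation rate with the level difference removed, the medians were 0.109 and -0.0424 over all members, 0.125 and -0.0425 for KRAB members, and 0.0878 and -0.0341 for C2H2 members without KRAB. Over all genes they were 0.143 and -0.000873. The second set is made from the same synthesis rates as the first.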

How the results depend on the processing

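The 19 calls in degradation were 47 with the replicate block (26 higher, 21 lower), 4 with libraries centred on their median (0 and 4), 49 with the replicate block and centring (8 and 41), 15 with quantile normalization (3 and 12), 0 at a threshold of 0.01, 37 in the authors' deposited table and 0 with the level difference removed, without or with the replicate block. Without 1 library they were 0 to 12, namely 0 without wild type at 60 min, 12 without wild type at 20 min, 1 without the knockout at 60 min and 2 without the knockout at 20 min, where the lone library is assumed to vary like the other genotype. All 19 were among the 47 and the 37, and 14 among the 49. The median change of 0.25 was -0.61 after centring and -0.47 after quantile normalization, and -0.096 to 0.44 without 1 library, so its sign depends on the scaling and on single libraries. Without the level difference Zfp423 turned to -0.41, Zfp536 to -0.013 and Zfp62 to 0.19.

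The 0 calls in processing were 47 with the replicate block, 26 with the replicate block and centring (9 higher, 17 lower), 29 with the replicate block and the level difference removed, and 0 to 1 without 1 library. The median of -0.55 was -0.20 after centring, -0.21 after quantile normalization and -0.37 with a pseudocount of 1.93 added to the rates. The median ratio change of synthesis to degradation, -0.12, was 0.50 after centring, -0.098 in members with at least 3 C2H2 motifs and -0.11 in members without shared sequence, and -0.15 to -0.12 without 1 library. That of synthesis to processing, 0.59, was 0.24, 0.62 and 0.53, and 0.57 to 0.59 without 1 library. Causes were not tested beyond what each alternative removes. Synthesis kept 0 calls in every alternative run. Membership by RefSeq proteins was not run. With 2 libraries per genotype and few precursor reads, precision is limited.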
